A study of Homo sapiens with 6 samples.

Results

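The genes of the respiratory chain and ATP synthase were examined in NCI-H460 cells after knockdown of PRMT5, the arginine methyltransferase that makes symmetric dimethylarginine on histones and splicing proteins. The gene set was chosen by symbol: NDUFA, NDUFB, NDUFC, NDUFS and NDUFV genes with a number, SDHA to SDHD, and symbols beginning with UQCR, COX4 to COX8, ATP5, MT-ND, MT-CO, MT-CYB or MT-ATP. Of 58825 genes in the data, 195 had such a symbol. After 95 pseudogenes were left out, 100 genes remained, 13 encoded by mitochondrial DNA and 87 by nuclear chromosomes. NCI-H460 is an established human lung carcinoma cell line. Cells were infected with virus carrying a control hairpin (NC-shRNA, 3 libraries) or a hairpin against PRMT5 (PRMT5-shRNA, 3 libraries). The study names puromycin selection for the PRMT5 knockdown cells. The control libraries are titled GFPkd, while the study lists a control shRNA and names no target for it. The study describes the libraries of each group as biological replicates of stably transfected cells. Which PRMT5 hairpin each library carried is not given in the labels, and neither source says how the replicates were separated, so the p-values measure the spread between these libraries.

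Oxidative phosphorylation is carried out in the inner mitochondrial membrane by complexes I to IV, which pass electrons to oxygen while all but complex II pump protons, and by complex V, the ATP synthase that uses the proton gradient. Complexes I, III, IV and V are assembled from proteins of both genomes, whereas complex II (succinate dehydrogenase) is encoded in the nucleus alone. The mitochondrial mRNAs are cut from long transcripts that cover nearly a whole DNA strand, while each nuclear gene has its own promoter.

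PRMT5 itself had 9604, 8812 and 7966 counts in NC-shRNA 1 to 3, compared with 2502, 3188 and 2203 after knockdown, with no overlap. Its log2 fold change was -1.62 ± 0.09 (SE, adjusted p = 0.0063, edgeR quasi-likelihood test with Benjamini-Hochberg adjustment over 20295 genes). Library totals were 53531257 to 70518401 counts. The keratins KRT8, KRT18 and KRT19 marked the carcinoma cells in every library, and EPCAM was at only 65 to 105 counts. The carcinoma markers summed to 1465 to 1643 CPM (counts scaled to library size) in NC-shRNA and 1330 to 1351 CPM in PRMT5-shRNA, and the blood markers to 13.5 to 18.3 and 12.4 to 14.6 CPM. Fibroblast markers summed to 96.8 to 124 and 86.0 to 104 CPM, and endothelial markers to 9.73 to 10.8 and 14.4 to 18.0 CPM. CD3E and COL1A2 were at 0 in all libraries, PTPRC at 0, 0 and 0 against 8, 10 and 0 counts, VWF at 0, 0 and 0 against 128, 105 and 122 counts, and PECAM1 at 30, 5 and 8 against 104, 100 and 109 counts. Apart from EPCAM, the other markers had more counts in every library. CD68 (698 to 1267 counts) made up nearly all of the blood sum, and DCN (4765 to 7529) most of the fibroblast sum. COL1A1 was at 702 to 935 counts and the endothelial CDH5 at 597 to 805. The carcinoma sum was lower and the endothelial sum higher in all PRMT5-shRNA libraries, and their part in the results was not tested. In bulk RNA, fewer cells of a kind and less RNA per cell cannot be told apart.

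Most of the oxidative phosphorylation genes were slightly lower in PRMT5-shRNA, in both genomes, but no single gene passed the adjusted threshold. Of the 94 genes with enough counts to be tested, 84 had a log2 fold change below 0, and the median was -0.18. Over all tested genes the median was 0.01, and 48.8% were below 0. No gene of the set had an adjusted p under 0.05 (lowest 0.199, highest 0.988, edgeR quasi-likelihood test), against 14 genes or 0.069% of all genes tested. At an unadjusted p under 0.05, 36 of the 94 (38.3%) were lower and 1 was higher, against 6.29% lower and 6.54% higher among all tested genes. Among genes with a mean of at least 10 CPM, 9.84% were lower by the same measure. In 45 of the 94 (47.9%) all 3 PRMT5-shRNA libraries lay below all 3 NC-shRNA libraries, and in 0 they all lay above. The shares over all tested genes were 10.7% below and 11.0% above. Members share libraries and often a level of expression, so these counts are a description and not independent replicates. The DESeq2 Wald test placed 2 of the 94, NDUFB10 and ATP5MC1, under an adjusted p of 0.05. Among all 20295 genes tested it placed 530 there, so the set did not stand out by that test.

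Another gene is annotated on the same strand over 38 of the 100, SDHD, ATP5MC3 and ATP5MF among them. With the counts of such partners added to the nuclear genes, 36 were again lower at an unadjusted p under 0.05. Of the 20296 genes tested in that fit, 2606 were at that p in either direction.

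**Figure D1:**
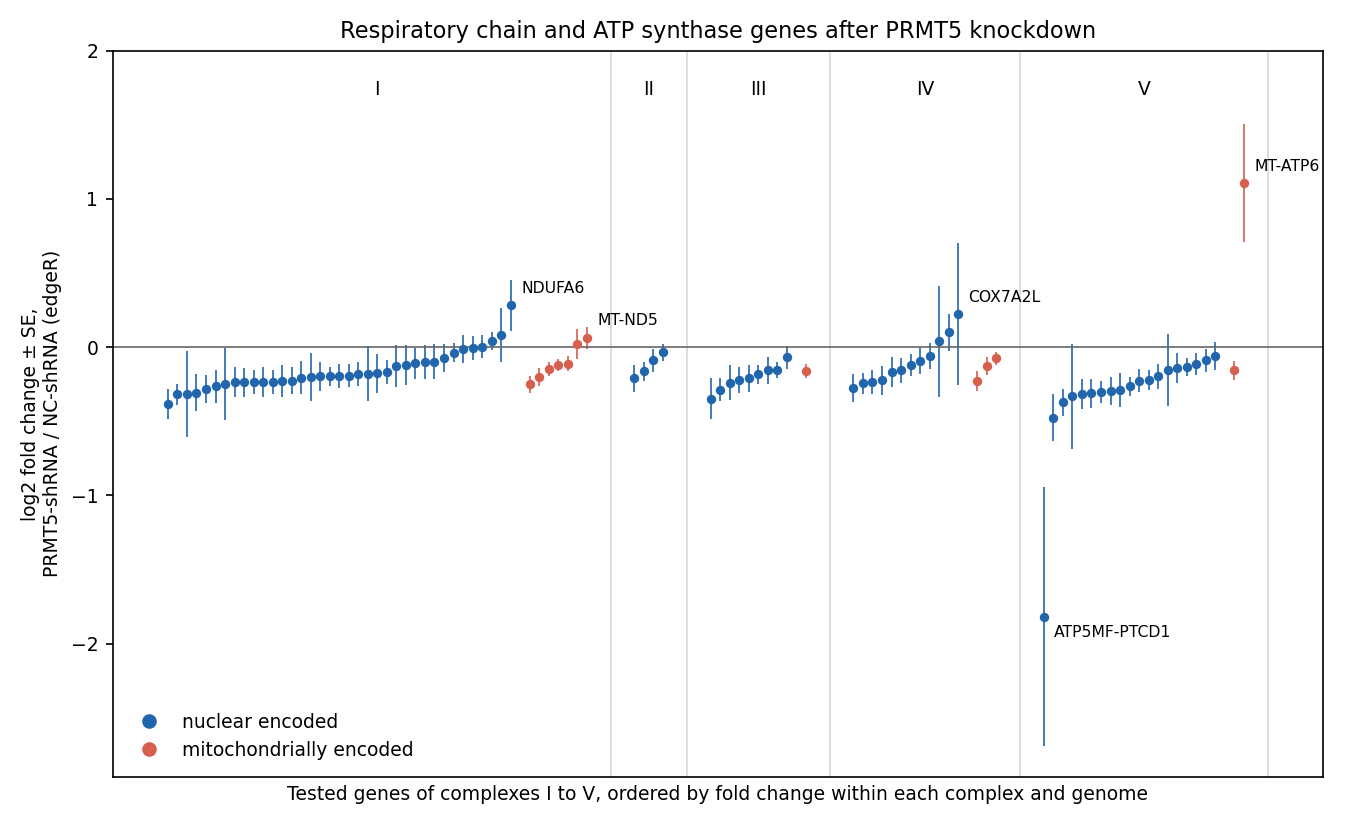
Log2 fold change with its standard error (y axis) for the 94 tested genes, grouped by complex (I to V) and ordered by size, with nuclear genes in blue and mitochondrial genes in red. Most points lie slightly below 0, and MT-ATP6 (1.11) and the readthrough gene ATP5MF-PTCD1 (-1.82) stand apart with wide errors.

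Levels differed far more between the genomes than between the groups. In FPKM, which corrects for gene length, the 13 mitochondrial genes had means over the 6 libraries of 2155 (MT-ND3) to 16975 (MT-CO2), with a median of 7090. The 81 tested nuclear genes ranged from 0.138 to 453 FPKM with a median of 30.4. The lowest mitochondrial gene was thus above the highest nuclear gene, ATP5F1B, which encodes the catalytic beta subunit of ATP synthase.

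**Figure D2:**
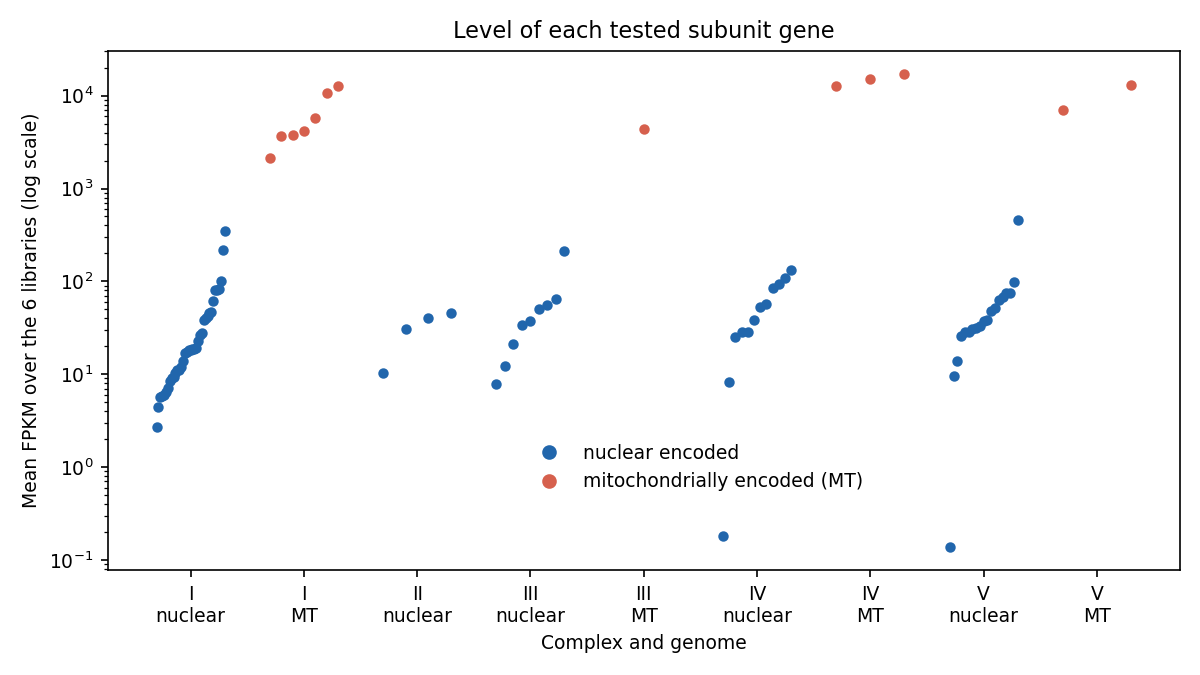
Mean FPKM over the 6 libraries (y axis, log scale) of each tested gene by complex and genome. Every mitochondrial gene (red) lies above every nuclear gene (blue).

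Among the mitochondrial genes, 10 of 13 were below 0 and the median log2 fold change was -0.13, a median level of 91.6% of NC-shRNA. Core subunits of complex I make up 7 of these genes. MT-ND1, which lies at the ubiquinone site, was at 5310, 5140 and 4672 CPM in NC-shRNA and 4188, 4287 and 4239 CPM in PRMT5-shRNA. The groups did not overlap, and the log2 fold change was -0.25 ± 0.06 (adjusted p = 0.20, edgeR). MT-ND2, MT-ND3, MT-ND4 and MT-ND4L also did not overlap, with log2 fold changes of -0.15, -0.20, -0.12 and -0.11. MT-ND5 was at 8672, 7707 and 7201 CPM in NC-shRNA and 8117, 8385 and 8116 CPM in PRMT5-shRNA (log2 fold change 0.06 ± 0.07). MT-ND6, the member encoded on the other strand from the rest, was at 2596, 2122 and 1947 CPM in NC-shRNA and 2214, 2284 and 2273 CPM in PRMT5-shRNA (0.02 ± 0.10). For both, the PRMT5-shRNA values lay inside the NC-shRNA range.

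MT-CYB, the cytochrome b of complex III, was at 6390, 6136 and 5922 CPM in NC-shRNA and 5408, 5600 and 5514 CPM in PRMT5-shRNA, without overlap (-0.16 ± 0.05, adjusted p = 0.27, edgeR). The complex IV core subunits MT-CO1, MT-CO2 and MT-CO3 had log2 fold changes of -0.08, -0.13 and -0.23. MT-CO3 was the lowest of them, at 13683, 12504 and 11439 CPM against 10712, 10903 and 10496 CPM, again without overlap (adjusted p = 0.28, edgeR). MT-CO1 also did not overlap, while MT-CO2 did.

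The genes of complex V carried the exception. MT-ATP8 and MT-ATP6, both parts of the membrane domain of ATP synthase, are read from the same mRNA and share 46 bases at chrM:8527-8572 of GRCh38 on the plus strand. The shared stretch is shown because it ties the pair to each other, with the start codon of MT-ATP6 and the stop codon of MT-ATP8 in capitals.
overlap of MT-ATP8 and MT-ATP6: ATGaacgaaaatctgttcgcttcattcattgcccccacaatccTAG
MT-ATP8 was at 3322, 3534 and 3161 CPM in NC-shRNA and 2796, 3113 and 3084 CPM in PRMT5-shRNA, without overlap (-0.16 ± 0.06, adjusted p = 0.38, edgeR). MT-ATP6 was at 3680, 3586 and 3380 CPM in NC-shRNA and at 3127, 9047 and 10751 CPM in PRMT5-shRNA. PRMT5-shRNA 1 was below every NC-shRNA library and the other PRMT5-shRNA libraries were far above, so the groups overlapped. The log2 fold change was 1.11 ± 0.40 (adjusted p = 0.33, edgeR), and 1.48 with an adjusted p of 0.011 in the same test without PRMT5-shRNA 1.

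In counts, MT-ATP6 was 1.11, 1.01 and 1.07 times MT-ATP8 in NC-shRNA and 1.12, 2.91 and 3.49 times in PRMT5-shRNA. The neighbour MT-CO3 was 4.12, 3.54 and 3.62 times MT-ATP8 in NC-shRNA and 3.83, 3.502 and 3.40 times in PRMT5-shRNA. A nuclear copy of MT-ATP6, MTATP6P1 on chromosome 1 (chr1:633696-634376), has 10 different bases over 681 aligned (98.5% identity) and held 158460, 156803 and 125483 counts in NC-shRNA and 100604, 142065 and 110252 in PRMT5-shRNA. MT-ATP6 took 60.9%, 61.3% and 62.6% of the counts of the pair in NC-shRNA and 62.9%, 81.7% and 84.9% in PRMT5-shRNA. The copy was 0.652 and 0.621 times MT-ATP8 in PRMT5-shRNA 2 and 3, where MT-ATP6 was high, against 0.639 to 0.710 times in NC-shRNA. Summed with its copies, MT-ATP6 had a log2 fold change of 0.73 (adjusted p = 0.39, edgeR), an alternative chosen after the data were seen. How the authors' counting divided reads between overlapping or near-identical genes is not stated, and its part in these values was not tested.

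**Figure D3:**
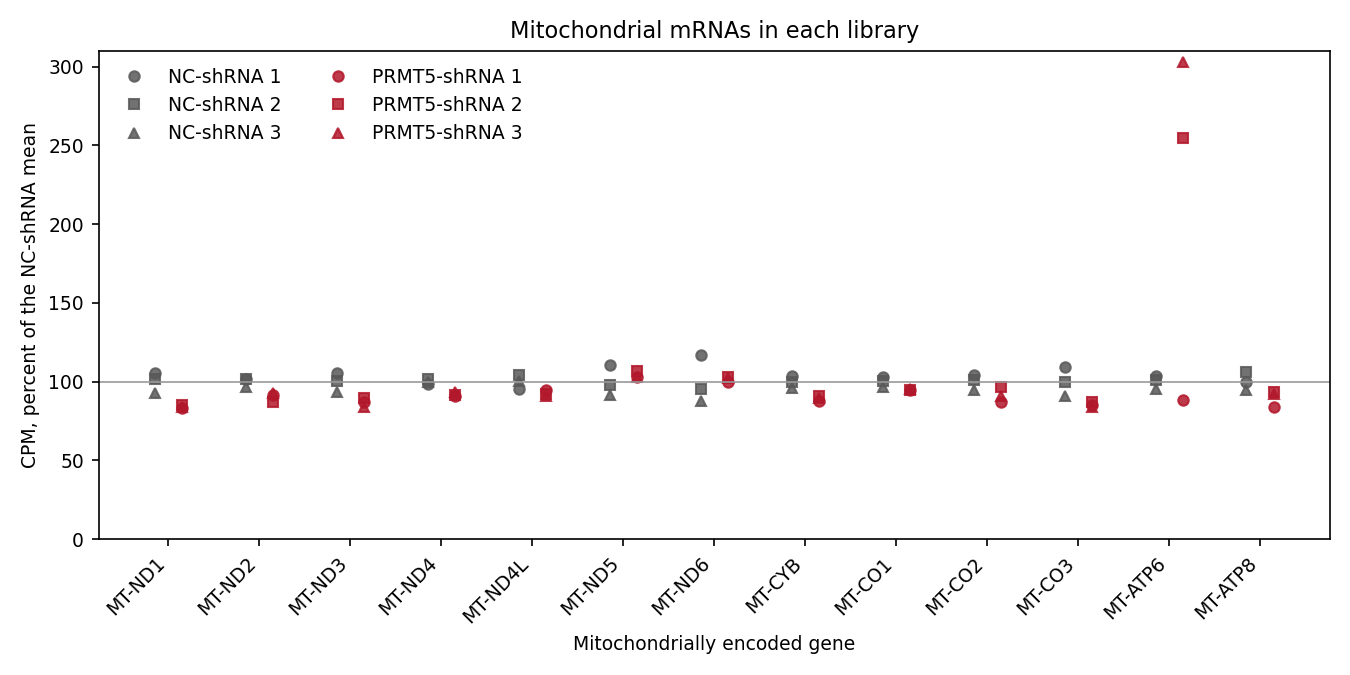
CPM of the 13 mitochondrial genes in each library as a percent of the NC-shRNA mean (y axis), with NC-shRNA in grey and PRMT5-shRNA in red. All genes but MT-ATP6 lie close to 100, and MT-ATP6 is above 250 in PRMT5-shRNA 2 and 3 only.

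Together the 13 mitochondrial genes held 11.6%, 11.5% and 11.1% of all counts in NC-shRNA and 10.8%, 11.5% and 11.7% in PRMT5-shRNA, overlapping ranges whose means differed by -0.067 percentage points. Without MT-ATP6 the shares were 11.3%, 11.2% and 10.8% in NC-shRNA and 10.5%, 10.6% and 10.6% in PRMT5-shRNA, a difference of -0.49 points without overlap. The 87 nuclear genes held 1.14%, 1.025% and 1.04% in NC-shRNA and 1.01%, 1.001% and 0.965% in PRMT5-shRNA, also without overlap.

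The nuclear genes had a median log2 fold change of -0.20, or 87.3% of NC-shRNA, and 74 of the 81 tested were below 0. Of these 81, 29 were lower at an unadjusted p under 0.05 (6.29% among all tested genes) and 0 were higher, and in 36 all PRMT5-shRNA libraries lay below the controls (10.7% among all tested genes). The medians by complex were -0.19 for complex I (37 genes), -0.13 for II (4 genes), -0.21 for III (9 genes), -0.14 for IV (12 genes) and -0.26 for V (19 genes). Without NC-shRNA 1 they were -0.13 for I, -0.07 for II, -0.13 for III, -0.06 for IV and -0.17 for V. With a correction for transcript length they were -0.11 for I, -0.06 for II, -0.13 for III, -0.02 for IV and -0.15 for V.

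The difference between the genomes was small. The mitochondrial median was 0.07 above the nuclear one. The spread of the libraries around each group's mean for that difference was 0.074 (pooled SD of 3 and 3 libraries), and without NC-shRNA 1 the difference was -0.01, so it was not larger than the replicate spread. As the median log2 CPM deviation from each gene's NC-shRNA mean, the mitochondrial genes were at 0.06, 0.01 and -0.08 in NC-shRNA and -0.18, -0.12 and -0.11 in PRMT5-shRNA. The nuclear genes were at 0.14, -0.05 and -0.08 in NC-shRNA and -0.18, -0.15 and -0.24 in PRMT5-shRNA. Each PRMT5-shRNA library was below each NC-shRNA library for both genomes, and NC-shRNA 1 stood above the other controls for the nuclear genes. Without NC-shRNA 1 the nuclear median was -0.13 and 29 genes were lower at an unadjusted p under 0.05. Without PRMT5-shRNA 3 that number was 17. Of all tested genes, 2605 were at that p in either direction with all libraries. Without NC-shRNA 1 these were 2087, and without PRMT5-shRNA 3 they were 1963. Why the number of lower genes of the set fell was not tested.

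**Figure D4:**
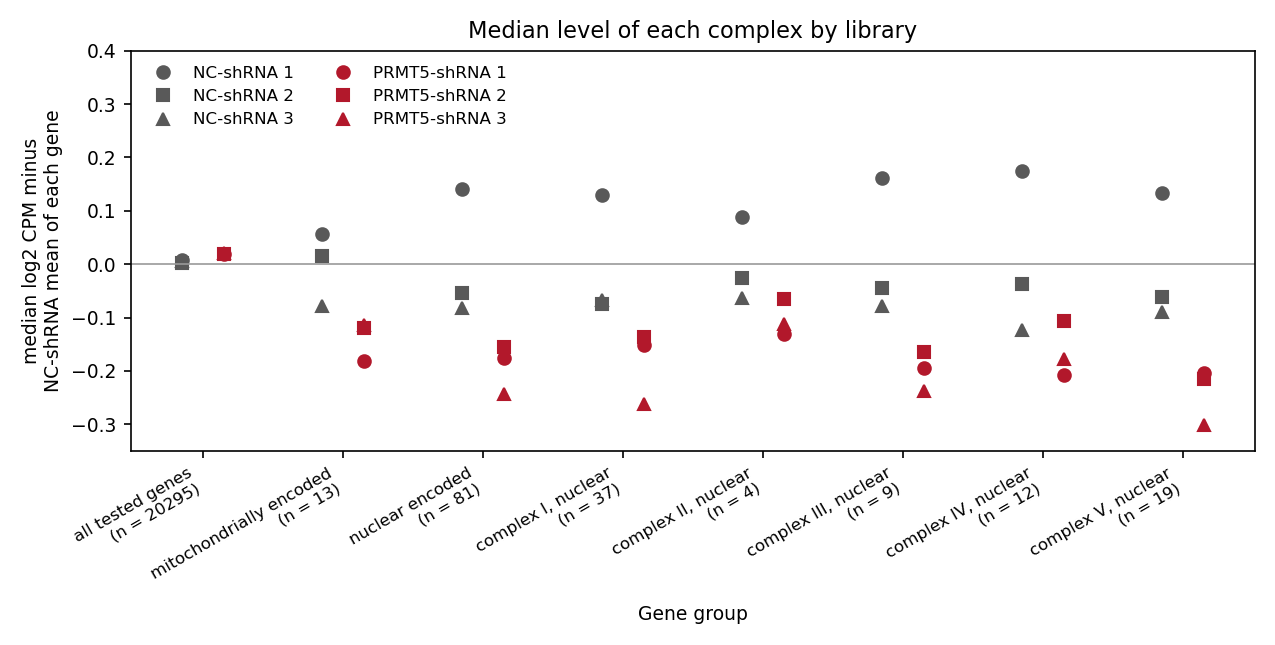
Median over genes of log2 CPM minus the gene's NC-shRNA mean (y axis) in each library for all tested genes, both genomes and the nuclear genes of each complex (n genes in brackets). PRMT5-shRNA libraries (red) lie below NC-shRNA libraries (grey) in both genomes, with NC-shRNA 1 highest. For the nuclear genes of complex IV the groups overlap, with PRMT5-shRNA 2 at -0.11 and NC-shRNA 3 at -0.12.

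Complex I oxidises NADH and has the most nuclear genes. Of its 37 nuclear genes 33 were below 0, 10 of them at an unadjusted p under 0.05 (6.29% among all tested genes). NDUFB10, an accessory subunit of the membrane arm, was at 120, 109 and 103 CPM in NC-shRNA and 90.3, 89.6 and 87.0 CPM in PRMT5-shRNA. The groups did not overlap, and the log2 fold change was -0.32 ± 0.07 (adjusted p = 0.20, edgeR; 0.024 by DESeq2). NDUFS6, a zinc-binding accessory subunit of the matrix arm, was at 174, 153 and 137 CPM against 125, 123 and 107 CPM, without overlap (-0.38 ± 0.10, adjusted p = 0.25, edgeR).

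The nuclear complex I gene with the highest level was NDUFS5, a small accessory subunit, at 346 FPKM. It was at 275, 226 and 229 CPM in NC-shRNA and 205, 209 and 186 CPM in PRMT5-shRNA, without overlap (-0.28 ± 0.09). NDUFA4, now counted with complex IV despite its name, had a log2 fold change of -0.20 ± 0.06, also without overlap. Those above 0 included NDUFA6, at 52.8, 50.6 and 76.7 CPM in NC-shRNA and 79.2, 76.2 and 63.4 CPM in PRMT5-shRNA (0.28 ± 0.17), NDUFB5 (0.08 ± 0.18) and the iron-sulphur subunit NDUFS1 (0.04 ± 0.06). In NDUFA6 the groups overlapped. Other core subunits of the electron path were NDUFS8 at -0.12 ± 0.14, NDUFS7 at -0.08 ± 0.09, NDUFV2 at -0.23 ± 0.08 and NDUFV1 at -0.19 ± 0.08, and their errors overlap.

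Complex II links the citric acid cycle to the chain. The values of its 4 genes ran from -0.21 for the membrane anchor SDHC to -0.03 for the flavoprotein SDHA. SDHC (191, 182 and 178 CPM against 167, 172 and 138) and the other anchor SDHD (113, 101 and 103 CPM against 96.6, 92.8 and 93.2) did not overlap between groups. SDHB, the iron-sulphur subunit and the complex II gene with the highest level at 45.2 FPKM, overlapped (-0.09 ± 0.08).

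Complex III passes electrons from ubiquinol to cytochrome c, and all 9 of its nuclear genes were below 0. UQCRQ, a small subunit bound near cytochrome b, was at 116, 101 and 99.9 CPM in NC-shRNA and 89.5, 87.6 and 82.2 CPM in PRMT5-shRNA, without overlap (-0.29 ± 0.08, adjusted p = 0.25, edgeR). UQCRB (-0.18) and the core protein UQCRC2 (-0.16) did not overlap either. The hinge protein UQCRH, with the highest nuclear level at 214 FPKM, did (398, 330 and 334 CPM against 311, 342 and 299). UQCRHL, an intronless copy of UQCRH, had -0.35 ± 0.14, but how reads of the near-identical pair were divided is not stated.

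Complex IV reduces oxygen, and several of its subunits come in tissue forms. In NCI-H460 the general forms COX4I1, COX6A1, COX6B1, COX7A2, COX7B and COX8A were at 24.9 to 131 FPKM. Their counterparts COX4I2, COX6A2 and COX7B2 were at 0 counts in all libraries, which allows up to 0.0425 to 0.0560 CPM at 3 counts per library. Counts gathered at 4, and if 1 fragment gives 4 counts the limit is 0.170 to 0.224 CPM, in both cases for counting error only. COX7A1 and COX8C had counts in 2 and 1 libraries and were not tested either, and the testis form COX6B2 was at 0.178 FPKM (0.04 ± 0.37).

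COX6B1 was at 127, 111 and 99.1 CPM in NC-shRNA and 94.6, 93.4 and 90.3 CPM in PRMT5-shRNA, without overlap (-0.28 ± 0.09, adjusted p = 0.31, edgeR). COX5A, which binds at the matrix side, was at 168, 166 and 145 CPM against 132, 140 and 132 CPM, without overlap (-0.24 ± 0.07, adjusted p = 0.28, edgeR). COX7B had -0.24, COX7A2 -0.22, COX8A -0.17, COX6A1 -0.12 and COX4I1 -0.09, and of these only COX7B did not overlap. COX7C was above 0, at 132, 113 and 109 CPM in NC-shRNA and 109, 147 and 121 CPM in PRMT5-shRNA (0.10 ± 0.13). COX7A2L, which takes part in supercomplexes, was at 57.5, 36.7 and 53.5 CPM against 32.6, 107 and 32.4 CPM (0.22 ± 0.48). PRMT5-shRNA 2 alone was high in COX7A2L, and without it the value was -0.60.

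Complex V had the lowest nuclear median, and all 19 tested genes were below 0. The c subunits form the rotating ring and are made as one mature protein from 3 genes. ATP5MC1 was at 99.7, 90.1 and 81.1 CPM in NC-shRNA and 70.995, 73.4 and 64.8 CPM in PRMT5-shRNA, without overlap (-0.37 ± 0.09, adjusted p = 0.22, edgeR; 0.037 by DESeq2). ATP5MC3 was at 306, 260 and 239 CPM against 217, 229 and 200 CPM, also without overlap (-0.31 ± 0.10), and ATP5MC2 at 155, 131 and 138 CPM against 120, 133 and 117 CPM, with overlap (-0.20 ± 0.08). All 3 were lower on average, and the pair that did not overlap had the larger differences.

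ATP5PF, coupling factor 6 of the peripheral stalk, was at 138, 122 and 122 CPM in NC-shRNA and 101, 110 and 98.2 CPM in PRMT5-shRNA, without overlap (-0.30 ± 0.08, adjusted p = 0.23, edgeR). The membrane subunit ATP5MF was at 230, 214 and 213 CPM against 174, 194 and 180 CPM, without overlap (-0.26 ± 0.06, adjusted p = 0.22, edgeR). In the catalytic head the values were nearer 0 for ATP5F1B (1318, 1078 and 1230 CPM against 1229, 1037 and 1213 CPM, -0.06 ± 0.10) than for ATP5F1A (-0.22 ± 0.07), which did not overlap. GABPA, a regulator annotated over ATP5PF on the opposite strand, was at 0.17 ± 0.10. The inhibitor ATP5IF1 was at -0.14 ± 0.10. The readthrough gene ATP5MF-PTCD1 had -1.82 ± 0.87 at 0.138 FPKM, with 1.75 CPM in NC-shRNA 3 and 0.183 to 0.245 CPM elsewhere. ATP5MGL had counts in 2 libraries and was not tested.

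Over all tested genes the log2 fold change was lower for shorter transcripts. The tested nuclear genes had a median transcript length of 750 nucleotides in the annotation, against 2110 for all tested genes. The 3052 tested genes of 500 to 1000 nucleotides had a median log2 fold change of -0.06, and the 47 nuclear genes of the set within that range had -0.23. At 1000 to 2000 nucleotides the nuclear genes of the set were at -0.07 against -0.02 for all tested genes, and at 2000 to 4000 nucleotides at -0.19 (10 genes) against 0.02. Genes above 4000 nucleotides had a median of 0.07. After a correction for each library's trend with length the nuclear median was -0.11, the mitochondrial median -0.05, and 22 genes were lower at an unadjusted p under 0.05. Of all tested genes, 2604 were at that p in either direction, against 2605 without the correction.

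**Figure D5:**
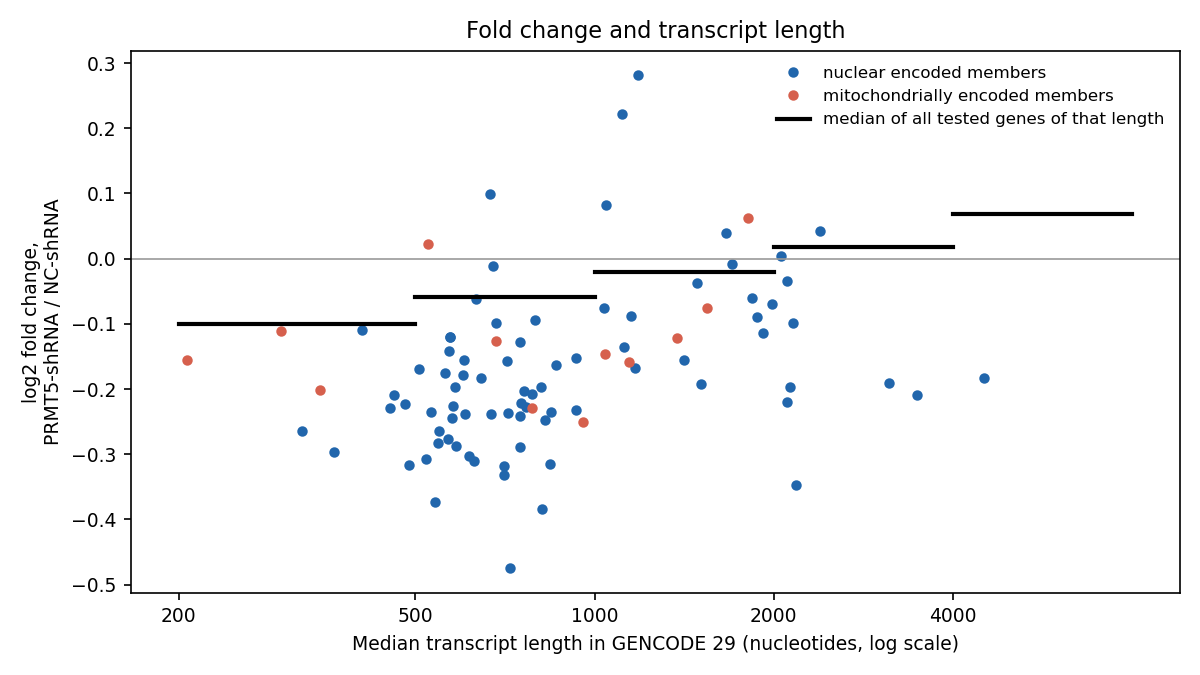
Log2 fold change (y axis) against median transcript length (x axis, log scale) for nuclear genes (blue) and mitochondrial genes (red), with black bars at the median of all tested genes in each length range. MT-ATP6 (1.11) and ATP5MF-PTCD1 (-1.82) lie outside the axis, and most points of 500 to 1000 nucleotides lie below the bar at -0.06.

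Nuclear genes of oxidative phosphorylation are known targets of the factors NRF1, the ETS family member GABP and YY1. Promoters of 300 bases, 250 before and 50 after the start, were matched for 69 of the 87 nuclear genes (RefSeq, GRCh38.p14). The NRF1 core GCATGCGC, on either strand, was in 13 of them (18.8%), against 3.27% of 27305 promoters and 4.26% of the 15843 promoters of coding genes. The ETS core CCGGAAG was in 20 (28.99%) against 10.7% and 14.2%, and the YY1 core AAGATGGC in 11 (15.9%) against 3.03% and 3.91%. At least 1 of these was in 34 (49.3%) against 15.6% and 20.3%. A match of letters is not evidence of binding. The median log2 fold change with and without the motif was -0.16 and -0.20 for NRF1, -0.22 and -0.19 for ETS, and -0.11 and -0.21 for YY1.

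The promoters of NDUFS6 (chr5:1801157-1801456, plus strand), SDHD (chr11:112086623-112086922, plus strand) and ATP5PF (chr21:25735005-25735304, minus strand) are shown because they belong to genes that did not overlap between groups and hold between them all 3 motifs. They were chosen after the values were seen, and capitals mark the motifs on either strand. In SDHD the NRF1 core lies on both strands of overlapping bases.
NDUFS6: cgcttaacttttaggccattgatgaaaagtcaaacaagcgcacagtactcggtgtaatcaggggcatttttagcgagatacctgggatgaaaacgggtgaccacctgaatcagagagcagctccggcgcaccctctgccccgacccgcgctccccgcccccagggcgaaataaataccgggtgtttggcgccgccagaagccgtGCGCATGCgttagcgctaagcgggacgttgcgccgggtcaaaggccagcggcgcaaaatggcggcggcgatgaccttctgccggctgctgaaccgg
SDHD: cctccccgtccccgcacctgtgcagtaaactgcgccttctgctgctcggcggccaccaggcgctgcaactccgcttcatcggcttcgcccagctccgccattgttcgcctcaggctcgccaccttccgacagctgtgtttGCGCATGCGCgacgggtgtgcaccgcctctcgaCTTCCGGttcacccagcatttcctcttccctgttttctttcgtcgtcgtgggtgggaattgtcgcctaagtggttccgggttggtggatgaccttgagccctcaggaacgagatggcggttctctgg
ATP5PF: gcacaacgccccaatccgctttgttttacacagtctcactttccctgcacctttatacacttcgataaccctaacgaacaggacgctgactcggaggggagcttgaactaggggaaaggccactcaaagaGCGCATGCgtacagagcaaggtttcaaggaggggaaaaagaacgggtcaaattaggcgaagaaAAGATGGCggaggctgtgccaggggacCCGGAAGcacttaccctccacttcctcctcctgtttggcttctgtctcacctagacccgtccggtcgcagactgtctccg
ATP5PF held the NRF1, YY1 and ETS cores in that order, and NDUFS6 held the NRF1 core alone.

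Assembly factors, which build the complexes, had a median log2 fold change of -0.11, with 39 of 54 tested genes below 0. At an unadjusted p under 0.05, 10 of the 54 were lower and 1 was higher, against 6.29% lower and 6.54% higher among all tested genes. In 12 all PRMT5-shRNA libraries lay below the controls and in 4, TTC19 among them, all lay above. Among all tested genes the shares were 10.7% below and 11.0% above, so the 4 are a description only. The complex I factors NDUFAF8 (-0.70 ± 0.17) and DMAC1 (-0.32 ± 0.10), and the complex IV factors COA4 (-0.36 ± 0.10) and COX16 (-0.51 ± 0.15), did not overlap between groups. For complex III, UQCC3 was at -0.40 ± 0.15 and TTC19 at 0.61 ± 0.26. TMEM70 and ATPAF2 of complex V were at -0.28 and -0.07, and SDHAF1 and SDHAF2 of complex II at -0.28 and -0.27, with overlap in ATPAF2 and both SDHAF genes.

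Among 30 genes for the replication, transcription, RNA processing or translation of mitochondrial DNA, 25 were below 0 and the median was -0.14. At an unadjusted p under 0.05, 6 of the 30 were lower and 0 higher, against 6.29% lower and 6.54% higher among all tested genes. TBRG4, an RNA-binding protein of mitochondria, was at 99.7, 99.2 and 94.9 CPM in NC-shRNA and 76.2, 78.0 and 75.6 CPM in PRMT5-shRNA, without overlap (-0.35 ± 0.06, adjusted p = 0.12, edgeR). TRMT10C, a subunit of mitochondrial RNase P, had -0.36 ± 0.07 (adjusted p = 0.18, edgeR), also without overlap. Of 9 regulators of mitochondrial biogenesis 1 was lower at an unadjusted p under 0.05, ESRRG, at 34, 16 and 23 counts against 0, 8 and 0, a share near the 6.29% over all tested genes. GABPA had the next smallest p.

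The counts that follow stand against 6.29% lower and 6.54% higher at an unadjusted p under 0.05 among all tested genes. Of 24 tested import genes 5 were lower and 0 higher at an unadjusted p under 0.05 (median -0.05), led by TOMM22 (-0.33) and TIMM50 (-0.26). Of 13 citric acid cycle genes 4 were lower and 1 higher (median -0.07), with citrate synthase CS at -0.17 and DLST at 0.47, at 123, 120 and 163 CPM against 193, 186 and 183 CPM. Of 6 related genes outside the symbol patterns 2 were lower, cytochrome c CYCS at 416, 380 and 381 CPM against 327, 320 and 335 CPM (-0.26 ± 0.06, adjusted p = 0.20, edgeR) and DMAC2 (-0.24). No gene named from these lists had an adjusted p under 0.05 in edgeR.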

How the data were processed

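RNA-seq was analysed in 3 NC-shRNA and 3 PRMT5-shRNA libraries of NCI-H460 cells. The submitters' processing notes name cutadapt 1.9, HISAT2 2.0.4, StringTie 1.3.4d and GRCh38. The authors deposited estimated counts per gene without normalization, already whole numbers, and FPKM values normalized for length and depth. In each library 1214 to 1319 genes had exactly 4 counts, against 283 to 546 with 3 or 5, so a count is not 1 fragment. Counts were scaled by TMM and tested with edgeR 4.0.16 (filterByExpr, quasi-likelihood test, Benjamini-Hochberg over 20295 genes, R 4.3.3). CPM are counts scaled to the TMM-adjusted library size. Standard errors were derived from the F statistic. DESeq2 1.42.0, limma 3.58.1 on log2(FPKM + 1) or log2(FPKM + 0.1), other scalings, a length correction, a replicate block and leaving out libraries were alternatives. The main fit, replicate block, length correction, scaling over nuclear genes, unfiltered fit, DESeq2 and limma with a pseudocount of 1 were tried on simulated counts. The other alternatives were not. Positions and lengths came from GENCODE 29, which held 58552 of the gene identifiers. The methods name GRCm38, a mouse build, as the human reference. The pseudogene rule was applied to genes annotated as not protein coding, which keeps MT-ATP6 and MT-ATP8. Genes named are all mitochondrial genes, in each complex the nuclear gene of highest FPKM and the 3 lower and 3 higher ones of smallest p, the tissue isoforms of complex IV, the c subunit genes and 2 genes per related list. Other genes were named after their values were seen. The gene set and lists were chosen with earlier results of these data known. Replicate numbers did not pair the libraries (correlations of same-numbered deviations 0.0011, -0.039 and 0.064). Chi-square per degree of freedom between libraries of a group was 39.6 to 57.6 with each count taken as independent, which overstates it since counts are not fragments, and no pair was merged.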

Additional observations from a re-analysis of the deposited data

How the results depend on the processing

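The number of genes lower at an unadjusted p under 0.05 (36) was 23 with total counts, 23 and 23 by limma on log2(FPKM + 1) and log2(FPKM + 0.1), 22 with the length correction, and 17 to 47 with 1 library left out. Of all tested genes, 2605 were at that p in either direction in the main fit. That number was 2688 with total counts, 2309 and 2298 by limma, 2604 with the length correction and 1963 to 2854 with 1 library left out. Genes of the set with an adjusted p under 0.05 numbered 2 by DESeq2 and 0 to 1 with 1 library left out. Among all tested genes these numbers were 530 and 8 to 25. The mitochondrial median (-0.13) was -0.067 and -0.067 by limma and -0.048 with the length correction, the complex II median -0.063, -0.064 and -0.057 by the same, and the complex V median -0.15 with the length correction and -0.28 to -0.17 with 1 library left out. The difference between the genomes' medians ranged from -0.0053 to 0.10 with 1 library left out. Total counts moved the median of all tested genes to 0.06, and relative to it the mitochondrial and nuclear medians remained below 0. The difference in the mitochondrial share of counts (-0.067 points) was 0.577 points as a share of FPKM and -0.495 points leaving out MT-ATP6. The cause of these shifts was not tested.

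The replicate block kept the PRMT5 log2 fold change at -1.62 with an adjusted p of 0.144 (edgeR), and at -1.62 with the length correction added (adjusted p 0.104). In the fit with both the block and the length correction, 22 genes were lower and the medians were -0.048 (mitochondrial), -0.059 (complex II), -0.023 (complex IV) and -0.15 (complex V). Of all tested genes, 2367 were at an unadjusted p under 0.05 in that fit, in either direction. With the replicate block alone 37 genes were lower and 0 genes of all tested had an adjusted p under 0.05 (2382 at an unadjusted p under 0.05).

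Among single genes the sign turned as follows, each with its range over the fits that left out 1 library. ATP5F1B was at 0.00096 by limma with either pseudocount and ranged from -0.14 to 0.013. COX4I1 ranged from -0.16 to 0.0029, COX7C from -0.028 to 0.19, MT-ND6 from -0.066 to 0.15 and NDUFB5 from -0.094 to 0.25. MT-ND4L was at 0.034 with the length correction and 0.039 with the block added. COX7A2L was at -0.031 with the replicate block and ranged from -0.60 to 0.51, and COX6B2 was at -0.016 with the replicate block and ranged from -0.23 to 0.31. Summing same-strand overlapping genes, summing mitochondrial genes with their nuclear copies, and leaving out MT-ATP6 were chosen after the data were seen. The first 2 left the number of lower genes at 36. Among all tested genes, 2606 and 2603 were at an unadjusted p under 0.05 in those fits, in either direction.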

Other observations

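Counts of the mitochondrial ribosomal RNAs were also lower on average, with no adjusted p under 0.05 by edgeR. The study names an mRNA library kit, and how these counts relate to rRNA or tRNA levels was not tested. MT-RNR1, the small subunit rRNA, was at 1367 ± 127 CPM (SD, n = 3) in NC-shRNA and 1081 ± 56.1 CPM in PRMT5-shRNA, without overlap between the groups, with a log2 fold change of -0.34 ± 0.08 (SE) and an adjusted p of 0.21 by edgeR. MT-RNR2, the large subunit rRNA, was at 16532 ± 314 CPM against 15301 ± 376 CPM, also without overlap, with -0.11 ± 0.04 and an adjusted p of 0.34 by edgeR. Of the 22 mitochondrial tRNA genes 14 were below 0, 0 were lower and 1 was higher at an unadjusted p under 0.05, and the median was -0.06. Of 18 tested nuclear copies of mitochondrial genes 14 were below 0, 6 were lower and 0 higher at an unadjusted p under 0.05, and the median was -0.25. Over all tested genes 6.29% were lower and 6.54% higher by that measure. These values are given as a description, and no adjusted p among them was under 0.05.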
